A study of Mus musculus with 6 samples.

Results

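A set of 9 genes for acute phase proteins and complement was followed in cultured adipocytes: Hp, Orm1, Saa3, Lcn2, Cp and Serpina3n of the acute phase, and C3, C4b and Cfb of complement. They were chosen by symbol, with earlier results of these data known. They are 9 of the 54532 gene IDs in the gene tables and of the 21769 IDs present in all 6 libraries. Messenger RNA was sequenced from wild-type 3T3-L1 cells, mouse fibroblasts that differentiate into fat cells in culture, all given the same insulin-based differentiation with maintenance medium until day 8. Of the libraries 3 were controls and 3 came from cells given chronic intermittent hypoxia (CIH), which is repeated spells of low oxygen. The oxygen schedule and the harvest time are not stated in these sources, no library is tied by the labels to a culture of its own, and 3T3-L1 is a single cell line that stands for adipocytes of a mouse only in culture.

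Acute phase proteins are secreted plasma proteins, made mostly by the liver and in part by adipocytes, whose output shifts with inflammation under interleukin 6, interleukin 1 and glucocorticoids, through the transcription factors STAT3, C/EBP and NF-κB. Complement is a cascade of plasma proteases and their substrates. Its classical, lectin and alternative arms all lead to cleavage of C3, and adipose tissue is known as a source of C3 and of factor D (Cfd), the protease of the alternative arm. In such cultures of total messenger RNA, fewer cells of a type and less RNA per cell cannot be told apart.

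Control 1, control 2, CIH 1 and CIH 2 were deposited as gene tables. Control 3 and CIH 3 were deposited as transcript tables, which were summed per gene here. Levels are given as FPKM, the fragments of a gene divided by its length in kilobases and scaled to the library's total fragments. A level in one kind of table cannot be set against a level in the other, so that replicates 1 and 2 (2 libraries against 2) and the replicate 3 pair (1 against 1, no test) are kept apart. The gene tables held about 25700000 to 28000000 fragments each, and the depth of the transcript tables is unknown. Total FPKM was 319607 to 361231 in the gene tables, 850766 in control 3 and 550322 in CIH 3. The summed level of 8 white adipocyte markers, Adipoq and Fabp4 among them, was 5656 and 6113 FPKM in the controls of replicates 1 and 2 and 6150 and 5403 in the matching CIH libraries, but 25764 in control 3 and 498 in CIH 3. The summed level of 8 preadipocyte or fibroblast markers was 186 and 200.1 FPKM, 231 and 236 FPKM in the same order, then 400.1 in control 3 and 3088 in CIH 3. Thus the adipocyte marker sum was far lower in CIH 3 than in control 3. CIH 3 still held Fabp4 at 354 FPKM and Adipoq at 42.7, against 17239 and 2156 in control 3. All 8 hepatocyte markers summed to at most 0.630 FPKM in every library. The macrophage markers Adgre1, Tyrobp and Laptm5 were listed at 0 in all 6, and that whole list summed to 1.65 to 2.02 FPKM in the gene tables, 4.71 in control 3 and 2.32 in CIH 3, most of it Cd68 in each library but CIH 3.

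In replicates 1 and 2, the haptoglobin gene Hp, the orosomucoid gene Orm1, the lipocalin gene Lcn2, the ceruloplasmin gene Cp and the complement genes C3 and C4b were lower in CIH, by 1.49-fold (Lcn2) to 8.28-fold (Hp) in mean FPKM. The antichymotrypsin-like serpin gene Serpina3n was 1.19-fold lower, and the serum amyloid gene Saa3 was higher. The factor B gene Cfb was not tested, since its mean over the 6 libraries was below the 1 FPKM required. It had 0 to 4 fragments per gene table. Of the 9 genes 8 were tested by limma with Benjamini-Hochberg adjustment over 10976 genes, and 7 were called lower and 1 higher at an adjusted p under 0.05. Of all tested genes 39.1% were called, 20.9% lower and 18.2% higher. In the same 7 genes both CIH libraries lay below both controls, as in 38.9% of all tested genes, and in 1 both lay above, as in 35.1%. Without a filter on low values, which tests 21769 genes, 4 were called lower and 0 higher, since Lcn2, Orm1 and Saa3 missed the threshold (limma adjusted p = 0.0933, 0.0522 and 0.0541) along with Serpina3n (0.0641). In limma fits of all 6 libraries 0 of the 8 were called. With the group alone 5 of them had an unadjusted p under 0.05, as had 490 of all 10976 tested genes. The median log2 change of the 8 genes was −1.11, against −0.01 for all genes tested. The 9 genes together made up 0.604% and 0.632% of total FPKM in control 1 and 2 and 0.160% in both CIH 1 and CIH 2. For replicate 3 the share was 0.158% in control 3 and 0.160% in CIH 3, while the summed level was 1342 and 879 FPKM. Genes of the mitochondrial genome held 43.7% of total FPKM in control 3, 22.4% in CIH 3 and 11.2% to 16.3% in the gene tables. Without those genes the 9 made up 0.280% in control 3 and 0.206% in CIH 3, 0.703% and 0.712% for the controls of replicates 1 and 2, and 0.189% and 0.191% for CIH 1 and 2.

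**Figure D1:**
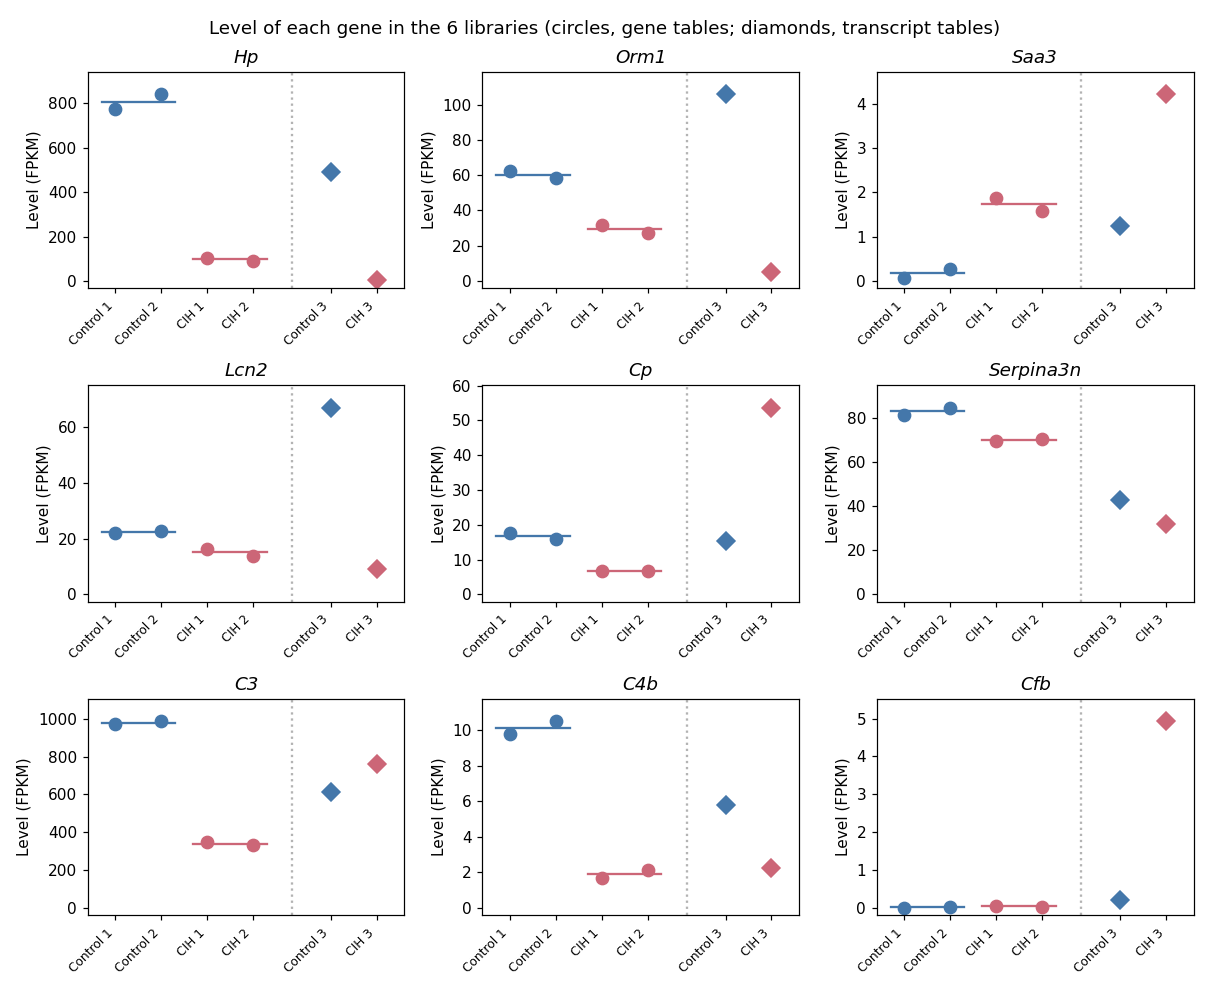
Level of each of the 9 genes in FPKM (vertical axis, linear, 1 scale per gene) in the 6 libraries (horizontal axis). Circles are gene tables with the mean of each group as a line, and diamonds after the dotted line are transcript tables, whose levels are not comparable with the circles; both CIH circles lie below both control circles for 7 genes and above them for Saa3.

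Promoters of 5 of the 9 genes (Saa3, Lcn2, Cp, Serpina3n and C3) had an entry in the RefSeq table of GRCm38.p6. Hp, Orm1, C4b and Cfb had none. The 250 bases before the start are shown for C3 and Cp, which fell in replicates 1 and 2, for Saa3, which rose, and for Serpina3n, which moved least, because acute phase factors are known to act on promoters of such genes. Each is written 5′ to 3′ on the strand of its gene, with a match to the C/EBP motif in capitals. The coordinates are chr17:57228137-57228386 on the minus strand for C3, chr7:46715677-46715926 on the minus strand for Saa3, chr3:19956804-19957053 on the plus strand for the first of 2 starts of Cp, and chr12:104406458-104406707 on the plus strand for Serpina3n.
C3: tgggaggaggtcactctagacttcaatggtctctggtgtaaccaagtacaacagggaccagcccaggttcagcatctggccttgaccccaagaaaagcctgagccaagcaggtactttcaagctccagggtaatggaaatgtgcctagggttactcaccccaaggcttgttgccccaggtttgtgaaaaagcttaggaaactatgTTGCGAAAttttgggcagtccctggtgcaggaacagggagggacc
Saa3: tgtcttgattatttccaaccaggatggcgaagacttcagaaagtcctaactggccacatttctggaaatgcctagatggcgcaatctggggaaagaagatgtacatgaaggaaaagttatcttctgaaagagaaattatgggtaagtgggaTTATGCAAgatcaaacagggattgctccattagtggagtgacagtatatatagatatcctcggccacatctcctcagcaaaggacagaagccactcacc
Cp: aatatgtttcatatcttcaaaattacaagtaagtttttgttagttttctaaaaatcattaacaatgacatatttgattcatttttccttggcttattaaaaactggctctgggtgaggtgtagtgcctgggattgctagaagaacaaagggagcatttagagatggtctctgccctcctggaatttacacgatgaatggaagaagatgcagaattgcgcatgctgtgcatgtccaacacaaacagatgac
Serpina3n: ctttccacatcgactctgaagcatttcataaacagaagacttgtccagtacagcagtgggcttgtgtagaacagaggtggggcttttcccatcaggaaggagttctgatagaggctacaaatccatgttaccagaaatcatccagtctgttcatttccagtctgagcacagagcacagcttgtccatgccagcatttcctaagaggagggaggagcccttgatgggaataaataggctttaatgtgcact

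The motifs searched, on both strands of the 250 bases before and 50 after the start, were TTGCNNAA for C/EBP, TTCNNNGAA for STAT, the κB consensus by its name for NF-κB, and ACGTG for the hypoxia response element. The C/EBP motif overlapped no match to another motif, since it alone was matched in these genes. Its first base lay 45 bases before the start in C3, 99 in Saa3, 216 in Lcn2 and 70 before the second start of Cp. Neither Serpina3n nor the first start of Cp held it. Of 32851 promoter entries of the same length, 10.8% held the C/EBP motif, 8.30% the STAT motif, 4.51% the κB consensus and 19.6% the hypoxia motif. The C/EBP match was thus found in C3, Lcn2 and Cp, which fell, and in Saa3, which rose. Whether the motif goes with the direction of change was not tested. Among the genes with a promoter entry Saa3 alone rose, and Hp, Orm1, C4b and Cfb had no entry. A match is a run of letters and not a shown binding site.

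Hp encodes haptoglobin, which binds free hemoglobin in plasma, and lies on chromosome 8 (109575128-109579172, minus strand, GRCm38). It was at 774 and 840 FPKM in control 1 and 2 and at 103 and 91.5 FPKM in CIH 1 and 2. It was at 491 FPKM in control 3 and 5.92 in CIH 3. CIH 1 and 2 lay below both of their controls, as in 38.9% of all tested genes, and CIH 3 lay below control 3. The means were 806.8 ± 46.9 and 97.4 ± 8.37 FPKM (SD, n = 2 each), a log2 change of −3.04 (SE 0.108, 95% interval −3.32 to −2.76; limma adjusted p = 0.000502). Among the tested genes Hp went from rank 28 and 29 by FPKM in control 1 and 2 to rank 464 and 470 in CIH 1 and 2. Control 3 and CIH 3 differed by 83.0-fold, or −6.15 on the log2(FPKM + 1) scale. The change in replicate 3 minus that in replicates 1 and 2 was −3.11 in log2.

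Such a difference between the kinds of table is given as a value with no test, because control 3 and CIH 3 are 1 library each. The limma interaction that was planned for it can use only the spread of the gene tables, and it called 22.1% of all tested genes more negative in replicate 3 and 43.9% more positive, so its calls are not used. The median difference over all tested genes was 0.31, which became −0.12 with scaling by the median of ratios and 0.91 with scaling to equal totals. The sharp drop of the adipocyte marker sum from control 3 to CIH 3 moved with the drops of Hp, Lcn2 and Orm1 in that pair, and its part in them was not tested. In replicates 1 and 2 the adipocyte marker sums of the groups overlapped. There 3 of the 7 tested markers, Slc2a4, Pparg and Lipe, were called lower in CIH, as were 20.9% of all tested genes.

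Orm1 encodes orosomucoid 1, an acidic glycoprotein that carries lipophilic molecules in plasma, and lies on chromosome 4 (63344560-63348163, plus strand). Its level was 62.2 and 58.4 FPKM in control 1 and 2 and 31.6 and 27.0 FPKM in CIH 1 and 2. It was 105.9 FPKM in control 3 and 5.31 in CIH 3. The CIH libraries lay below the controls in both kinds of table. In replicates 1 and 2 the log2 change was −1.02 (SE 0.0971, 95% interval −1.27 to −0.77; limma adjusted p = 0.00283). Replicate 3 showed a 19.9-fold difference, and its change minus that of replicates 1 and 2 was −3.06.

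The neighbouring paralog Orm2 went the other way in replicates 1 and 2, from 3.46 and 2.81 FPKM in the controls to 6.81 and 4.75 in CIH. That log2 change was 0.70 (limma adjusted p = 0.0325), which missed the threshold without CIH 1 (adjusted p = 0.101) and without control 2 (0.0762). Orm2 was 27.6 FPKM in control 3 and 1.81 in CIH 3. The third paralog, Orm3, was at 4.67 ± 0.200 FPKM in controls and 4.20 ± 0.279 in CIH (SD, n = 2 each), not called (limma adjusted p = 0.299). Of the 50-base words of the Orm1 transcript, 20.4% also occur in Orm2, so that fragments there could be split between the genes, and the authors' way of counting them is not stated.

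Lcn2 encodes lipocalin 2, which binds bacterial siderophores and is secreted by adipocytes, and lies on chromosome 2 (32384633-32388252, minus strand). Its level was 22.1 and 22.8 FPKM in control 1 and 2 and 16.3 and 13.9 FPKM in CIH 1 and 2. In control 3 it was 66.8 FPKM and in CIH 3 9.002. Both CIH libraries of replicates 1 and 2 lay below both controls, as in 38.9% of all tested genes. The change there was modest, at −0.55 in log2 (SE 0.0933, 95% interval −0.79 to −0.30, limma adjusted p = 0.0119). The replicate 3 pair differed by 7.42-fold, and the difference from replicates 1 and 2 was −2.21 in log2.

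Cp encodes ceruloplasmin, a copper-carrying ferroxidase of plasma, and lies on chromosome 3 (19957054-20009145, plus strand), where 1.13% of its exon bases overlap the antisense gene Hps3. It was at 17.7 and 15.8 FPKM in control 1 and 2 and at 6.85 and 6.65 FPKM in CIH 1 and 2. In the replicate 3 pair the order was turned, with 15.3 FPKM in control 3 and 53.6 in CIH 3. In replicates 1 and 2 the log2 change was −1.19 (SE 0.0846, 95% interval −1.41 to −0.98; limma adjusted p = 0.00145). CIH 3 was 3.51-fold above control 3, and the difference from replicates 1 and 2 was 2.94 in log2. Of the 8 transcript entries of Cp, the most abundant in CIH 3 went from 5.91 FPKM in control 3 to 16.8 in CIH 3 and the next from 5.94 to 14.9, so the rise did not rest on a single entry.

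Saa3 encodes serum amyloid A3, a member of its family made largely outside the liver, and lies on chromosome 7 (46711998-46715700, minus strand). Its level was 0.0746 and 0.274 FPKM in control 1 and 2 and 1.88 and 1.58 FPKM in CIH 1 and 2. It was 1.24 FPKM in control 3 and 4.21 in CIH 3. Of the 9 genes Saa3 was the only 1 whose CIH libraries all lay above the controls of their kind of table, though at low levels throughout. In fragments, control 1 and 2 had 5 and 20, and CIH 1 and 2 had 128 and 113, a ratio per sequenced fragment of 9.66 (95% interval 6.39 to 15.2, counting error only). The log2 change was 1.22 (SE 0.103, 95% interval 0.95 to 1.49; limma adjusted p = 0.00225). A pseudocount of 0.1 FPKM in place of 1 gave 2.83. The controls of replicates 1 and 2 were below the mean of 1 FPKM required for testing, so Saa3 entered the test only through its CIH and replicate 3 levels. The replicate 3 pair also differed by 1.22 in log2, 3.41-fold in FPKM. The liver-type paralogs Saa1 and Saa2 were at most 0.0434 FPKM in every library.

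Serpina3n encodes a serine protease inhibitor of the antichymotrypsin family and lies on chromosome 12 (104406729-104414329, plus strand). It changed least of the 8 tested genes in replicates 1 and 2, from 81.2 and 84.4 FPKM in the controls to 69.4 and 70.3 FPKM in CIH. It was 42.8 FPKM in control 3 and 31.9 in CIH 3. CIH libraries lay below controls in both kinds of table, by 1.19-fold and 1.34-fold. The log2 change of −0.24 (SE 0.0670, 95% interval −0.41 to −0.07) had a limma adjusted p of 0.0429, and the call was lost when any of the 4 libraries was left out (adjusted p from 0.106 to 0.164), with a replicate block (0.0987), and with scaling by the upper quartile (0.0767) or the median of ratios (0.0550). For replicate 3 the log2 change was −0.41 and turned to 0.20 with scaling to equal totals. A pair of paralogs of the same cluster moved further. Serpina3g, a protease inhibitor known from leukocytes, went from 1.44 and 1.88 FPKM to 8.39 and 9.04 (log2 1.87, limma adjusted p = 0.00108) and from 0.691 in control 3 to 32.7 in CIH 3. Serpina3c went from 5.64 and 5.21 FPKM to 2.66 and 2.57 (log2 −0.83, limma adjusted p = 0.00301), with 2.97 FPKM for control 3 and 5.37 for CIH 3.

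C3 encodes the component on which all arms of complement converge, and lies on chromosome 17 (57203970-57228136, minus strand). It was the most abundant of the 9 genes in every library, with 973 and 987 FPKM in control 1 and 2 and 347 and 331 FPKM in CIH 1 and 2. It was 613 FPKM in control 3 and 762 in CIH 3. The groups were far apart in replicates 1 and 2, where 46704 to 142062 fragments per library lay behind each value, and close together in replicate 3. The log2 change was −1.53 (SE 0.109, 95% interval −1.81 to −1.25; limma adjusted p = 0.00146), 2.89-fold in mean FPKM. C3 went from rank 24 in both controls to 97 and 91 in CIH 1 and 2. In replicate 3 the change was 0.31 in log2, which turned to −0.13 with scaling by the median of ratios, and the difference from replicates 1 and 2 was 1.84.

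C4b encodes the fourth component, which the classical and lectin arms cleave, and lies on chromosome 17 (34728380-34743882, minus strand). Its level was 9.79 and 10.5 FPKM in control 1 and 2 and 1.71 and 2.12 FPKM in CIH 1 and 2. It was 5.82 FPKM in control 3 and 2.26 in CIH 3, so CIH lay below control in both kinds of table. The log2 change in replicates 1 and 2 was −1.94 (SE 0.104, 95% interval −2.21 to −1.67; limma adjusted p = 0.000846), 5.31-fold in mean FPKM. The replicate 3 pair differed by −1.06 in log2, or −0.57 with scaling to equal totals, and the difference from replicates 1 and 2 was 0.88. The paralog C4a shares 35.2% of the 50-base words of the C4b transcript and was at 0.1503 to 0.317 FPKM in the gene tables, so a split of fragments between the pair cannot be told apart from their true levels.

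Cfb encodes factor B, which forms the alternative-arm convertase with C3b, and lies on chromosome 17 (34856374-34862518, minus strand). It had 0 and 3 fragments in the controls of replicates 1 and 2 and 4 and 2 fragments in CIH, where 3 fragments correspond to 0.0379 FPKM in control 2. The ratio of 6 to 3 fragments was 2.0 (95% interval 0.428 to 12.4), so no difference was detectable at this depth. In the transcript tables it was 0.215 FPKM in control 3 and 4.93 in CIH 3, 22.9-fold higher in CIH. Of its exon bases 79.5% overlap Gm20547 on the same strand, which was at 0 in all gene tables and in control 3 and at 0.0739 FPKM in CIH 3. The counting of fragments in the overlap is not stated in these sources.

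In the replicate 3 pair, 4 of the 8 tested genes (Hp, Orm1, Lcn2 and C4b) were at least 2-fold lower in CIH on the log2(FPKM + 1) scale, where 11.8% of all tested genes were. Cp and Saa3 were at least 2-fold higher, where 21.8% of all tested genes were, and Cfb, which was not tested, was too. The median of the 8 was −0.74, against 0.26 for all tested genes. Cp and C3 had opposite signs in the 2 kinds of table. For C3 the replicate 3 change was only 0.31 in log2, and its sign turned with scaling by the median of ratios. Without scaling, Cp, C3 and Cfb were higher in CIH 3, where the preadipocyte or fibroblast marker sum was also higher. The part of that sum in these differences was not tested.

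**Figure D2:**
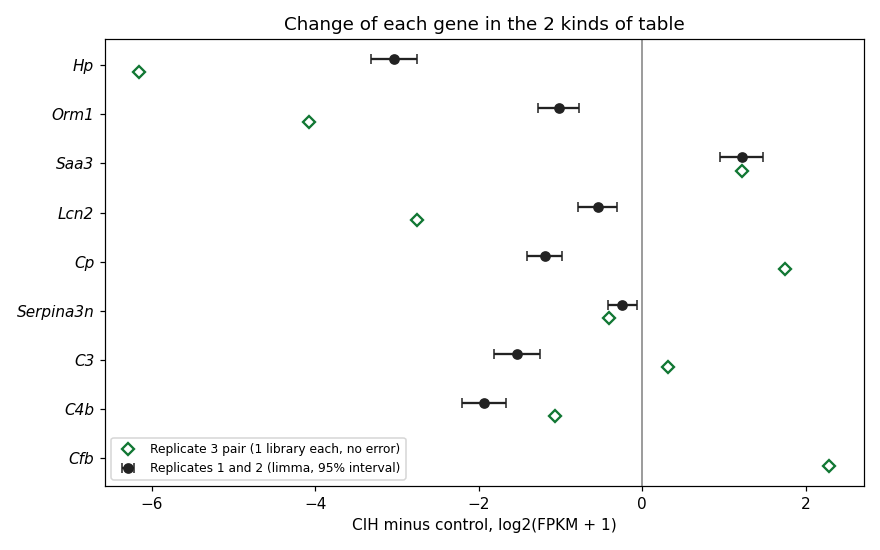
Change from control to CIH of each of the 9 genes on the log2(FPKM + 1) scale (horizontal axis). Filled circles are replicates 1 and 2 with the 95% interval of limma, and open diamonds are the replicate 3 pair, which has no error. Hp is lowest in both, at −3.04 and −6.15. Cp and C3 lie on opposite sides of 0, and the replicate 3 sign of C3 depended on the scaling.

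Among other complement components, 28 genes chosen by function, 10 were tested. Of these 4 fell, 1 rose and 5 were not called in replicates 1 and 2, with a median of −0.28. Beside them, 20.9% of all tested genes were called lower and 18.2% higher. Factor D (Cfd), the protease that cleaves factor B and a known adipocyte product, fell most, from 1013 and 1214 FPKM to 113 and 87.4, an 11.1-fold change in mean FPKM (limma adjusted p = 0.000746). It was 397 FPKM in control 3 and 4.07 in CIH 3. Thus 2 alternative-arm genes, C3 and Cfd, were high in control cells and lower in CIH 1 and 2, while Cfb was at or near 0 in all 4. Those Cfb values may not be its true level, since 79.5% of its exon bases overlap Gm20547 and the counting there is not stated. C8g, a chain of the membrane attack complex, fell from 5.98 ± 1.28 to 1.99 ± 0.392 FPKM (SD, n = 2 each; limma adjusted p = 0.00657), and the protease-like gene C1rl from 11.9 ± 1.44 to 4.54 ± 0.153 (adjusted p = 0.00229). C1ra, a protease of the C1 complex, fell from 11.3 ± 1.05 to 7.77 ± 0.322 FPKM (SD, n = 2 each; limma adjusted p = 0.0164), a call lost without CIH 1 (0.0923) or CIH 2 (0.0610). Properdin (Cfp), which stabilises the alternative-arm convertase, rose from 0.952 ± 0.0799 to 1.90 ± 0.140 FPKM (SD, n = 2 each; limma adjusted p = 0.00483). The 3 chains of C1q (C1qa, C1qb and C1qc) were listed at 0 in all 6 libraries, and C2 was at most 0.405 FPKM in the gene tables. C8a and C8b, the genes of the other C8 chains, were also listed at 0 in all 6 libraries.

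Several protease genes of the classical and lectin arms, singled out after their values were seen, differed widely in the replicate 3 pair. C1s1 was 3.45 FPKM in control 3 and 129.6 in CIH 3, and C1ra was 5.65 and 93.3. C1rb, C1s2 and Masp1 were 13.6-fold to 26.6-fold higher in CIH 3. In replicates 1 and 2 limma called none of C1rb, C1s1, C1s2 and Masp1 (adjusted p = 0.0995, 0.0717, 0.559 and 0.139). C4b, of the same arms, was lower in CIH 3, as given above. The fibroblast marker sum was also higher in CIH in this pair, and its part in these differences was not tested.

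**Figure D3:**
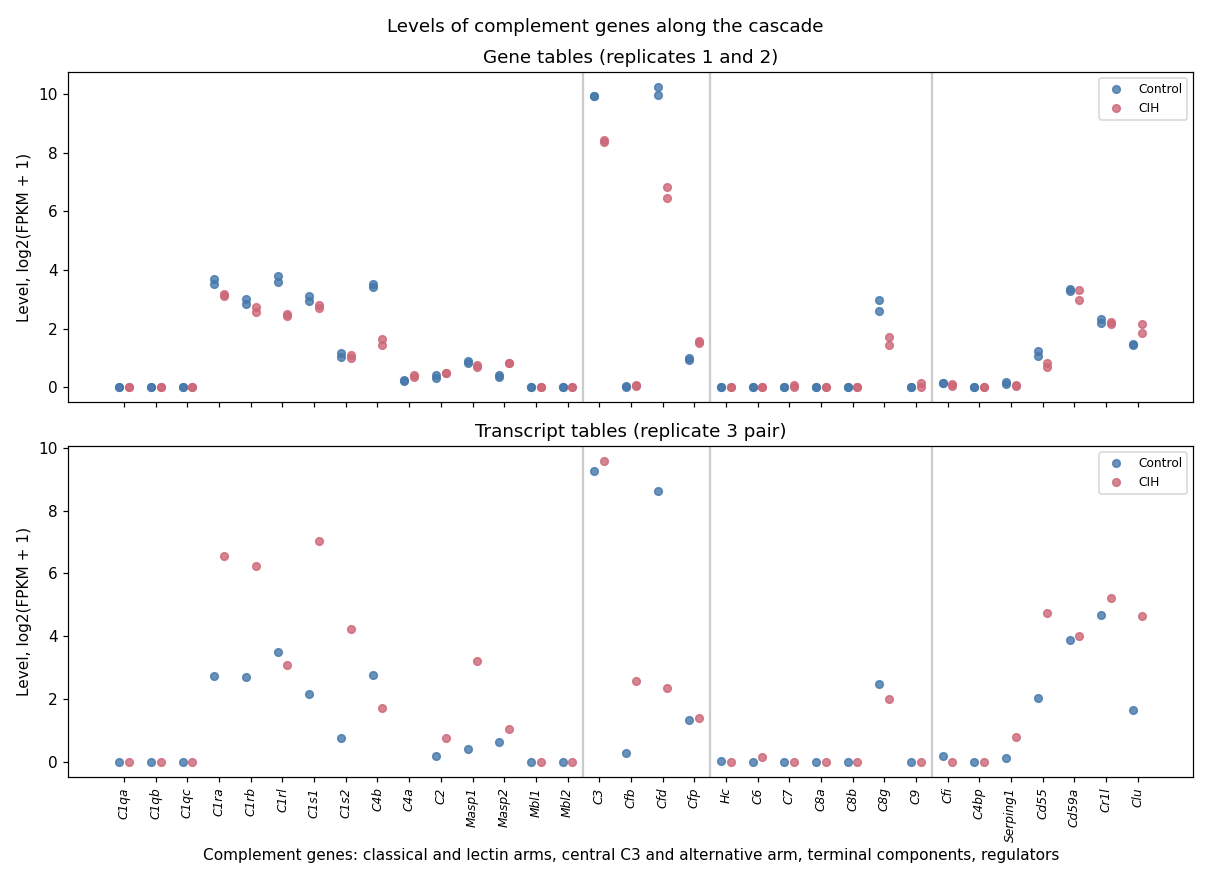
Level of 33 complement genes in log2(FPKM + 1) (vertical axis), ordered along the cascade (horizontal axis) with grey lines between its stages, 1 point per library. C3 and Cfd stand above all others in the control gene tables (upper panel) and lie lower in CIH, while the genes C1ra, C1rb, C1s1 and C1s2 are higher in CIH in the transcript tables (lower panel) but not in the gene tables.

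Of 16 complement regulators 6 were tested, with 1 lower, 2 higher and 3 not called and a median of −0.06. Of all tested genes 20.9% were called lower and 18.2% higher. Clusterin (Clu), which binds the terminal complex, went from 1.76 ± 0.0584 to 3.03 ± 0.617 FPKM (SD, n = 2 each; limma adjusted p = 0.0240). Cd55, a membrane protein that speeds the decay of convertases, went from 1.21 ± 0.186 to 0.705 ± 0.118 FPKM (SD, n = 2 each; limma adjusted p = 0.0263). Both calls were lost without CIH 1 (adjusted p = 0.0651 for Clu and 0.118 for Cd55) or control 1 (0.0506 and 0.0657), that of Clu also without control 2 (0.0548) and that of Cd55 without CIH 2 (0.0501). Clu and Cd55 were 2.13 and 3.10 FPKM in control 3 and 24.0 and 25.6 in CIH 3. Of 10 complement receptors, C1qbp, which binds C1q, was tested and rose from 58.3 ± 4.07 to 81.5 ± 6.585 FPKM (SD, n = 2 each; limma adjusted p = 0.0173), a call lost without CIH 1 (0.0822) or control 1 (0.0593). In replicate 3 it was lower in CIH, with 117 FPKM in control 3 and 80.02 in CIH 3. Cd55 was also opposite in replicate 3, and Clu was higher in CIH in both kinds of table.

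Among 34 other acute phase proteins 15 were tested, and 9 fell, 3 rose and 3 were not called, with a median of −0.64, where 20.9% of all tested genes were called lower and 18.2% higher. The metallothionein gene Mt1, which binds zinc and copper, fell from 1042 and 1009 FPKM to 384 and 318 (log2 −1.55, limma adjusted p = 0.00248), with 2853 FPKM for control 3 and 1040 for CIH 3. Its neighbour Mt2 fell by 1.48 on the log2 scale (adjusted p = 0.00537). The glycoprotein gene Lrg1 fell from 25.47 ± 1.40 to 10.6 ± 1.01 FPKM (SD, n = 2 each; limma adjusted p = 0.00177) and the fibrinogen chain gene Fga from 3.17 ± 0.101 to 0.902 ± 0.180 (adjusted p = 0.00177). Besides Orm2, the 2 genes that rose were Ptx3, a long pentraxin, from 0.279 ± 0.0362 to 1.10 ± 0.0175 FPKM (SD, n = 2 each; limma adjusted p = 0.00128), and the metalloreductase gene Steap4, from 46.9 ± 4.17 to 76.0 ± 5.999 (adjusted p = 0.00754). Ptx3 reached the mean of 1 FPKM required for testing only through its CIH levels, chiefly CIH 3, as Fga did through its control levels. The replicate 3 values were 1.62 FPKM in control 3 and 17.5 in CIH 3 for Ptx3, but 36.8 and 10.3 for Steap4, opposite to replicates 1 and 2. Lrg1 was 8.10 and 0.640 FPKM there, and Fga 2.02 and 0. The other fibrinogen chain genes, Fgb and Fgg, were at 0 in all gene tables. Of the 15, in the replicate 3 pair, 8 were at least 2-fold lower and 3 at least 2-fold higher, as were 11.8% and 21.8% of all tested genes. Of 9 negative acute phase proteins, which the liver makes less of in inflammation, 8 were under 0.5 FPKM in all gene tables.

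Of 28 tested genes of inducers and their signalling, 9 fell, 3 rose and 16 were not called, with a median of −0.09, where 39.1% of all tested genes were called. The interleukin 6 receptor gene Il6ra fell from 5.99 ± 0.0942 to 2.57 ± 0.0445 FPKM (SD, n = 2 each, limma adjusted p = 0.00177). The kinase gene Jak2 fell from 10.7 ± 1.13 to 5.79 ± 0.140 (adjusted p = 0.00523), and the interferon gamma receptor gene Ifngr1 from 102 ± 0.297 to 63.2 ± 5.36 (adjusted p = 0.00520). The tumour necrosis factor receptor gene Tnfrsf1b also fell (adjusted p = 0.00650). Il6st, Jak1 and Tyk2, of the same list and singled out after their values were seen, were not called (limma adjusted p = 0.562, 0.321 and 0.463). In replicate 3 Ifngr1 was lower in CIH too, at 84.3 and 31.0 FPKM, but Il6ra was 10.82 and 11.002, Jak2 14.4 and 19.98, and Tnfrsf1b 5.47 and 6.52, none of them lower in CIH. The feedback inhibitor gene Socs3 rose from 3.83 ± 0.437 to 7.82 ± 0.119 FPKM (SD, n = 2 each; limma adjusted p = 0.00402), and in the replicate 3 pair it was 1.53 in control 3 and 16.4 in CIH 3. Relb and Nfkbiz, of the NF-κB pathway, rose too (adjusted p = 0.0163 and 0.0443), calls lost without CIH 2 (0.0754 and 0.195) or CIH 1 (0.0707 and 0.0981), and for Nfkbiz also without control 1 (0.134) or control 2 (0.0690). Control 3 and CIH 3 had 3.35 and 21.5 FPKM of Relb, but 17.4 and 6.50 of Nfkbiz, opposite to replicates 1 and 2. The gene of interleukin 6 itself (Il6) was at most 0.195 FPKM in the gene tables and 0.605 in CIH 3. The C/EBP genes Cebpa, Cebpb and Cebpd were chosen after their values were seen, as genes of the factors whose motif was searched. Cebpa went from 232 ± 5.91 to 182 ± 5.84 FPKM (SD, n = 2 each; limma adjusted p = 0.0275), a call lost without any 1 of the 4 libraries (0.0834 to 0.115), with a replicate block (0.0771) and without a filter (0.0697), and was 148 FPKM in control 3 and 6.18 in CIH 3. Cebpb and Cebpd went from 217 ± 36.0 to 168 ± 6.28 FPKM (SD, n = 2 each; limma adjusted p = 0.0890, not called) and from 32.0 ± 3.08 to 16.4 ± 0.210 (not tested, since Cebpd is not in the transcript tables).

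Of 10 receptors of acute phase proteins 6 were tested, with 3 lower, 1 higher and 2 not called and a median of −0.23. The shares over all tested genes were 20.9% lower and 18.2% higher. Scarb1, a lipoprotein receptor that also binds serum amyloid A, fell from 60.9 ± 0.445 to 35.0 ± 1.32 FPKM (SD, n = 2 each; limma adjusted p = 0.00225). Lrp1 and the lipocalin 2 receptor gene Slc22a17 fell as well (adjusted p = 0.0295 and 0.0174), calls lost without CIH 1 (0.130 and 0.0926) or CIH 2 (0.0536 and 0.0511), for Lrp1 also without control 2 (0.0789) and for Slc22a17 without control 1 (0.0548). In replicate 3 both were higher in CIH, with 46.8 and 133 FPKM for Lrp1 and 1.26 and 2.455 for Slc22a17, while Scarb1 was lower, at 132.6 and 16.4. Tlr2, a receptor of bacterial lipoproteins, rose from 1.37 ± 0.117 to 2.37 ± 0.270 FPKM (SD, n = 2 each; limma adjusted p = 0.0117), with 0.710 FPKM for control 3 and 18.53 for CIH 3.

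Over all 152 pathway genes outside the 9, 70 were tested and 27 (38.6%) were called lower and 12 (17.1%) higher, beside 20.9% and 18.2% of all tested genes, with 6 called higher when CIH 1 was left out. The lists behind these shares were chosen with earlier results of these data known. Among 7 tested adipocyte markers, 3 fell in replicates 1 and 2, with a median of −0.12. These were Slc2a4, the insulin-responsive glucose transporter, from 85.1 ± 3.45 to 22.4 ± 2.25 FPKM (SD, n = 2 each; limma adjusted p = 0.000746), Pparg (adjusted p = 0.00383) and Lipe (0.0195), the last lost without any 1 of the 4 libraries (0.0602 to 0.0829). Adipoq, the adiponectin gene, was 792 ± 41.55 and 730 ± 107 FPKM (SD, n = 2 each; limma adjusted p = 0.561). Among 7 tested preadipocyte or fibroblast markers 5 rose and 2 fell, with Thy1 from 0.890 ± 0.158 to 3.70 ± 0.166 FPKM (SD, n = 2 each; limma adjusted p = 0.00130). The part of these marker changes in the changes of the 9 genes was not tested. All 7 adipocyte markers were, in the replicate 3 pair, at least 2-fold lower in CIH and all 7 of the other list at least 2-fold higher.

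**Figure D4:**
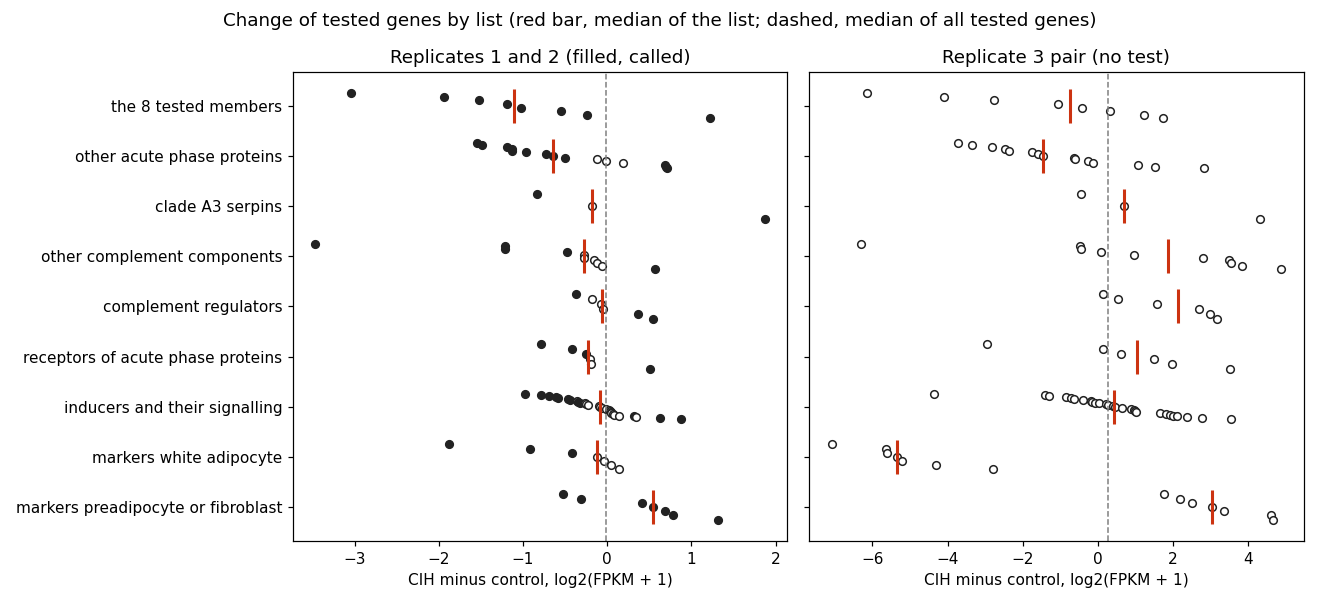
Change from control to CIH on the log2(FPKM + 1) scale (horizontal axis) of every tested gene by list (vertical axis), in replicates 1 and 2 (left; filled points were called) and in the replicate 3 pair (right, no test). Red bars are list medians and dashed lines the medians of all tested genes; the adipocyte markers have a median of −0.12 on the left and −5.34 on the right.

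For each tested gene, the genes with the most similar pattern were found by Euclidean distance over the 6 libraries, on log2(FPKM + 1) centred within each kind of table. The nearest to Hp were the adipokine gene Retn (distance 0.346), the desaturase gene Scd1 (0.447) and Cfd (0.472). Retn was 183 and 203 FPKM in control 1 and 2, 25.4 and 21.3 in CIH 1 and 2, 305 in control 3 and 5.01 in CIH 3. Among the genes nearest to Orm1 were Cyp2f2 (0.280) and Lpin1 (0.302), and Lcn2 lay nearest to Gramd1b (0.146), Pla2g12a (0.151) and Paqr4 (0.155). Cp lay nearest to Sp140 (0.159), Ccl6 (0.246) and Slc41a3 (0.256). Being picked for likeness to Cp, these shared its lower CIH levels in replicates 1 and 2 and its higher level in CIH 3. C3 lay nearest to Tcn2 (0.143), Vhl (0.189) and Slc11a2 (0.217), and C4b nearest to Snrk (0.244), Coq8a (0.248) and Egln1 (0.304). Saa3 lay nearest to Hist1h4i (0.130), Lrfn4 (0.142) and Hist1h1e (0.213), and Serpina3n nearest to Rbms2 (0.0389), Ccm2 (0.0391) and Hinfp (0.0462). No pattern nearest to one of the 8 genes was that of another of them.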

How the data were processed

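RNA-seq values of 6 libraries, 3 control and 3 CIH, were analysed. All were deposited by the authors as FPKM, a unit read from the values, since the file headers name only samples. Per the submitters' processing notes, GRCm38, featureCounts 1.5.0-p3 and DESeq 1.8.3 were used, in roles not stated, and no aligner is named in them. Per the labels' protocols, directional libraries were made from 1.3 µg of RNA of cells grown with 10% serum and 0.1 µM insulin. Replicates 1 and 2 are gene tables and replicate 3 transcript tables of 50660 entries for 21950 gene IDs, summed per gene here. For replicates 1 and 2, 98.4% to 98.6% of values below 50 fragments lay within 0.05 of a whole fragment, which gave their depth.

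Symbols and exons came from GENCODE mouse release 21 (GRCm38), and promoters from RefSeq (GRCm38.p6). Genes whose mean over the 6 libraries reached 1 FPKM were tested on log2(FPKM + 1) in R 4.3.3 with limma 3.58.1 (trended empirical Bayes) and adjusted by Benjamini-Hochberg, with calls at an adjusted p under 0.05. Fold changes on that scale understate the change of low genes. A count test was planned first, with limma as its replacement for FPKM. On simulated data with 200 changed genes among 10976, a fit like that of replicates 1 and 2 recovered 74% of 2-fold and 97% of 4-fold changes. In the real data 39.1% of the genes were called, so these shares may not carry over. Tables were made with Python 3.11.15 (pandas 2.3.3, scipy 1.17.1). Intervals of fragment ratios cover counting error only.

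No separate cultures are named, so the spread behind each p-value is that between libraries and may be technical. Control 1 and 2 differed by more than sampling noise (mean chi-square 14.1 over 13894 genes), as did CIH 1 and 2 (9.59 over 13997), and each was kept. Deviations from group means correlated between same-numbered libraries at 0.529, 0.587 and 0.581. Each exceeds 0.1, the value set for pairing. The crossed pairs, control 1 and CIH 2 (0.568) and control 2 and CIH 1 (0.567), gave similar values. Replicate 3 libraries correlated at −0.591 to −0.553 with replicates 1 and 2 of the other group, so these values split by kind of table. Within replicates 1 and 2 alone the same-numbered libraries were at −0.178. The correlations thus do not pair replicates 1 and 2 by number, and the labels state no pairing.

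The 9 genes and all lists were chosen with earlier results of these data known. Named list genes were up to 4 called genes per direction and list with the largest change whose 2 CIH libraries were both above or both below the 2 controls, plus paralogs and neighbours of the 9. Alternatives were other scalings, pseudocount, filters, leaving out each library, a replicate block and fits of all 6 libraries. Some genes that this rule or the search for similar patterns picked are not reported here.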

Additional observations from a re-analysis of the deposited data

How the results depend on the processing

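Over replicates 1 and 2, the counts of 7 genes called lower and 1 higher among the 9 were kept within 1.5 times under every scaling, with a pseudocount of 0.1 FPKM, and when a library was left out (6 lower and 1 higher each time). A lone library left in a group is assumed there to vary like the others. Without a filter on low values limma called 4 lower and 0 higher, with adjusted p = 0.0933 for Lcn2, 0.0522 for Orm1 and 0.0541 for Saa3. With the filter applied to the 4 gene tables, 0 were called higher, because Saa3 then fell below it and was not tested. Fits of all 6 libraries called 0 lower and 0 higher with the group alone, 0 and 0 with the kind of table as a term, and 0 and 0 with a replicate block. In these fits 5, 5 and 4 of the 8 tested genes had an unadjusted p under 0.05. Of all 10976 tested genes 490, 2052 and 1123 did. Among the 70 tested pathway genes, 27 calls lower and 12 higher became 11 and 5 without a filter, and ranged from 18 to 23 lower and from 6 to 10 higher when a library was left out (6 higher without CIH 1). The change of Serpina3n in replicate 3 minus that in replicates 1 and 2 was −0.17 and turned to 0.56 with scaling to equal totals, but was −0.42 by the upper quartile and −0.62 by the median of ratios; these values have no test, since replicate 3 is 1 library per group.

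With a replicate block over replicates 1 and 2, 6 of the 9 genes were called lower and 1 higher, and 25 and 11 pathway genes. Serpina3n lost its call there, as did Nfkbiz (adjusted p = 0.0664), Lipe (0.0585), Pdgfra (0.0606) and Cebpa (0.0771), and the block changed no other call among the genes named by the rule. Within replicates 1 and 2 alone, deviations of same-numbered libraries correlated at −0.178, and a crossed pairing, chosen after seeing the data, gave 7 lower and 1 higher among the 9 and 2370 lower and 2140 higher of all genes.

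Over all genes, 2297 were called lower and 1995 higher, so that 53.5% of calls were lower. That share was 68.2% with scaling to equal totals (3039 lower, 1417 higher), 43.8% by the upper quartile (1934 and 2479) and 50.3% by the median of ratios (2176 and 2150). The counts were 806 and 590 of 21769 genes without a filter, 1038 and 827 without CIH 1, 1192 and 1124 without CIH 2, and 1664 and 1332 without control 1. Fits of all 6 libraries called 0 genes with the group alone (490 at an unadjusted p under 0.05), 43 lower and 20 higher with the kind of table as a term (2052), and 0 with a replicate block (1123). The median change of all genes in the replicate 3 pair moved from 0.26 to −0.13 by the median of ratios and to 0.84 with scaling to equal totals. The cause of these differences was not tested. Few fragments limit Cfb and Saa3, with 0 to 4 and 5 to 128 per gene table. For Cfb the counting of fragments in its overlap with Gm20547 is also not stated.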
